A study of Mus musculus with 12 samples.

Results

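Histone and DNA methylation enzymes were followed as a list of 39 genes, chosen by symbol: the writers and erasers of histone lysine methylation, the DNA methyltransferases and the TET enzymes. The gene identifiers of the count table, without their version, were matched to these symbols. All 39 were found among the 47069 genes of the table, and all 39 were among the 17286 genes with enough counts to be tested. The list holds 7 genes of the KMT2 and SETD1 families of H3K4 methyltransferases, 4 other SET and DOT1 methyltransferases and 5 H3K9 methyltransferases. It also holds 4 subunits of Polycomb repressive complex 2 (PRC2), 14 lysine demethylases, 2 DNA methyltransferases and 3 TET dioxygenases.

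Lysine methylation marks chromatin according to the residue that carries it. Methylation of H3K4 is found at active promoters and enhancers, that of H3K36 and H3K79 along transcribed genes, and that of H3K9 and H3K27 in silenced chromatin. DNA methyltransferases add methyl groups to cytosine and TET enzymes oxidise them, and cortical neurons are known for abundant 5-hydroxymethylcytosine and for methylation outside CpG sites. Loss of function of several of these genes in people, among them KMT2A, KMT2C, KMT2D, KDM5C, EHMT1, NSD1, SETD5 and DNMT3A, is known to cause neurodevelopmental syndromes.

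The RNA came from frontal cortex on both sides of the brain in male C57BL/6 mice, and 12 mRNA libraries form 4 groups of 3. Mice labelled as conditional Hdac2 knockouts, with both Hdac2 alleles flanked by loxP and a CamKIIa-Cre transgene, received chronic clozapine at 10 mg/kg (knockout clozapine 3, 4 and 5) or vehicle (knockout vehicle 2, 4 and 5). Wild-type mice received the same drug (wild-type clozapine 2, 3 and 5) or vehicle (wild-type vehicle 1, 3 and 4). Hdac2 encodes a histone deacetylase, clozapine is an antipsychotic drug, and CamKIIa-Cre is known to act mainly in forebrain excitatory neurons, so other cells of the tissue keep the gene. The labels give no age, no length of treatment, and no loxP or Cre status for the wild-type mice. They also do not say whether a library holds 1 animal, so a p-value here reflects how much single libraries of a group vary.

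Total counts lay between 23408372 and 28069638 per library. Hdac2 itself was at 73.9, 70.5 and 71.2 CPM (counts relative to the TMM-scaled library total) in knockout clozapine, 75.4, 76.6 and 73.3 in knockout vehicle, 75.5, 72.4 and 73.5 in wild-type clozapine and 75.7, 63.4 and 70.0 in wild-type vehicle. It was thus not lower in the libraries labelled knockout, and the genotype is used here as labelled. Summed markers of excitatory neurons were at 8160 to 9665 CPM in all 12 libraries, as the label of frontal cortex implies, and no listed marker of any of 14 cell types was at 0 in every library. The wild-type vehicle 3 library stood apart in its choroid plexus markers, which summed to 61.08 CPM against 3.594 to 9.954 CPM in the other 11.

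The upstream DNA of 3 members that were lower in the labelled knockout is shown because these were the largest falls among the list: Kmt2d, Kdm7a and Kmt2a. Each window covers 230 bases, from 250 to 21 bases before the RefSeq start on build GRCm38.p6. The sequences run 5′ to 3′ on the strand of the gene, with CpG dinucleotides in capitals. All 3 genes are on the minus strand: the Kmt2d window is chr15:98871226-98871455, the Kdm7a window is chr6:39206794-39207023 and the Kmt2a window is chr9:44881310-44881539.
Kmt2d: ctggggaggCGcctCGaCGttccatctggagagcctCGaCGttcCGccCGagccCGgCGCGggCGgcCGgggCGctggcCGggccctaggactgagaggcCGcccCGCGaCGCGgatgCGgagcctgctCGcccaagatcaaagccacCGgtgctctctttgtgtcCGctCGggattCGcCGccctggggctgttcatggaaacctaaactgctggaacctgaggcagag
Kdm7a: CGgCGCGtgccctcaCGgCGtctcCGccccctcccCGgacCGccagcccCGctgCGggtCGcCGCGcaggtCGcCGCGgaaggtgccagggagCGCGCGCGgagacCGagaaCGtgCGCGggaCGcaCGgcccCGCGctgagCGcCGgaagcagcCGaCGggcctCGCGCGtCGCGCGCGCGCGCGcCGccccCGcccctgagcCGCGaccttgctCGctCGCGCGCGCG
Kmt2a: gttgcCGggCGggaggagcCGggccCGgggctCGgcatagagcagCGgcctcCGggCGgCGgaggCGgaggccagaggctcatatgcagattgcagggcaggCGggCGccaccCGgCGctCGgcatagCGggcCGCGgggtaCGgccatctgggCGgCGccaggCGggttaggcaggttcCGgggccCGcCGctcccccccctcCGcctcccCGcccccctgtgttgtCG
The Kmt2d window holds 26 CpGs, the Kdm7a window 52 and the Kmt2a window 28. Of all 32851 RefSeq windows of this length, 7.14% hold at least as many CpGs as Kmt2d, 0.0122% as many as Kdm7a and 5.47% as many as Kmt2a. The 6-base GC box core GGGCGG, searched on both strands, occurs in all 3. Of the 39 members 30 had an entry in the set of RefSeq windows used here, with 42 windows in all. Their median was 20.5 CpGs, from 0 to 52, against a median of 5 over all windows. The GC box core was found in 25 of the 42 member windows (59.5%) and in 29.8% of all windows. All windows cover 27025 genes and were not limited to tested genes, while every member was tested. The members' windows were not compared with those of tested genes alone. CpG-rich starts were thus common in the list, and the members that fell under vehicle differed in their windows: Kdm5c had 10 CpGs and Tet3 had 13, both without the core, while Kmt2c had 44. A match is a description of the letters in the window and not a site.

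Transcript levels are compared between genes as CPM per kb of exon, averaged over the 12 libraries. The members spanned a wide range, with a median of 4.13 CPM per kb against 3.95 over all tested genes, and 22 of 39 stood above that value. Ehmt2, whose product G9a places H3K9 dimethylation, was highest at 42.8 CPM per kb. Kdm4b, a demethylase of H3K9 and H3K36, came next at 13.8. Ezh2, the PRC2 catalytic subunit of dividing cells, was lowest at 0.43, just below the dioxygenase Tet1 at 0.45, and their library ranges overlapped.

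**Figure D1:**
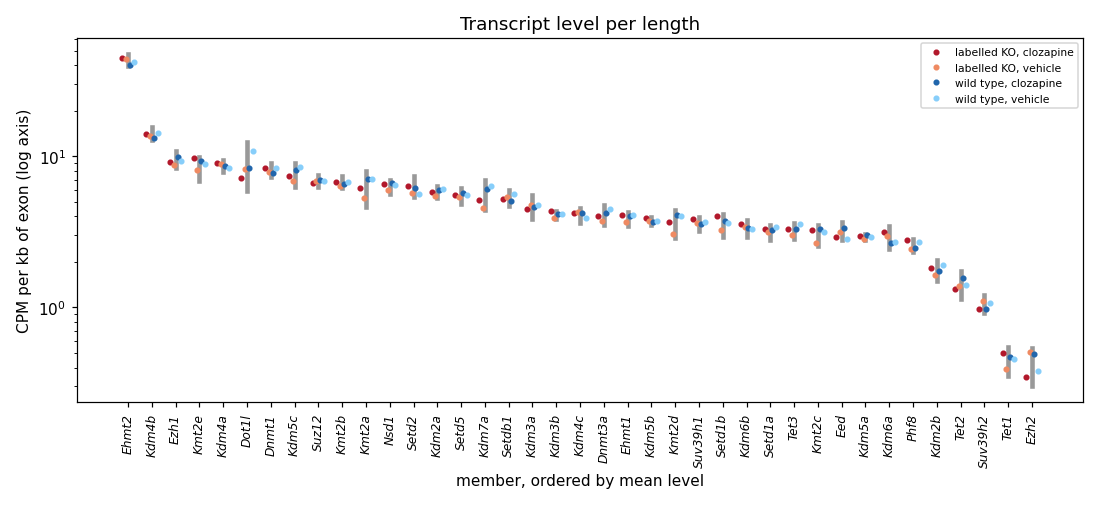
Mean transcript level of each member per group, in CPM per kb of exon on a log axis, ordered by the mean over 12 libraries; points are group means of 3 libraries and grey bars span the lowest to the highest library. Ehmt2 is highest at a mean of 42.8 CPM per kb, and Tet1 at 0.45 and Ezh2 at 0.43 are lowest.

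Within the role groups the levels also differed widely. Among the KMT2 and SETD1 genes Kmt2e, a SET protein with no established methyltransferase activity, was highest at 9.02 CPM per kb and Kmt2c lowest at 3.09. Of the other SET and DOT1 enzymes, the H3K79 methyltransferase Dot1l was highest at 8.66 and Setd5 lowest at 5.56. In the H3K9 group Suv39h2, a writer of H3K9 trimethylation, was lowest at 1.03. PRC2 was led by Ezh1, the catalytic subunit of non-dividing cells, at 9.29, followed by the core subunit Suz12 at 6.83 and the H3K27 methyl reader Eed at 3.07. Kdm2b, an H3K36 demethylase, was lowest of its group at 1.78. Kdm5c led the KDM5 enzymes, erasers of H3K4 methylation, at 7.71 and Kdm5a was lowest at 2.93. The H3K27 demethylases Kdm6b and Kdm6a were at 3.40 and 2.87. The maintenance enzyme Dnmt1 stood at 8.09 and the de novo enzyme Dnmt3a at 4.12. Of the TET enzymes Tet3 was highest at 3.29, above Tet2 at 1.42.

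Most members were steady across the 12 libraries. The ratio of the highest to the lowest library in CPM was smallest for Kdm5a at 1.10 and largest for Dot1l at 2.13, with Ezh2 at 1.77 and Kmt2a at 1.71. Ezh2 was counted with few reads, 50 in its lowest library. Members are long transcripts, with a median exonic length of 9318 bases against 4008 over all tested genes. The annotated exons of Setd1a overlap other genes over 52.3% of their length, those of Kdm3b over 24.6% and those of Suv39h1 over 14.6%, so their values are uncertain. Among the members that fell under vehicle this overlap was 2.85% for Kdm7a, 2.27% for Kmt2a, 1.35% for Kmt2c, 0.799% for Dnmt3a and 0 for the others.

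**Figure D2:**
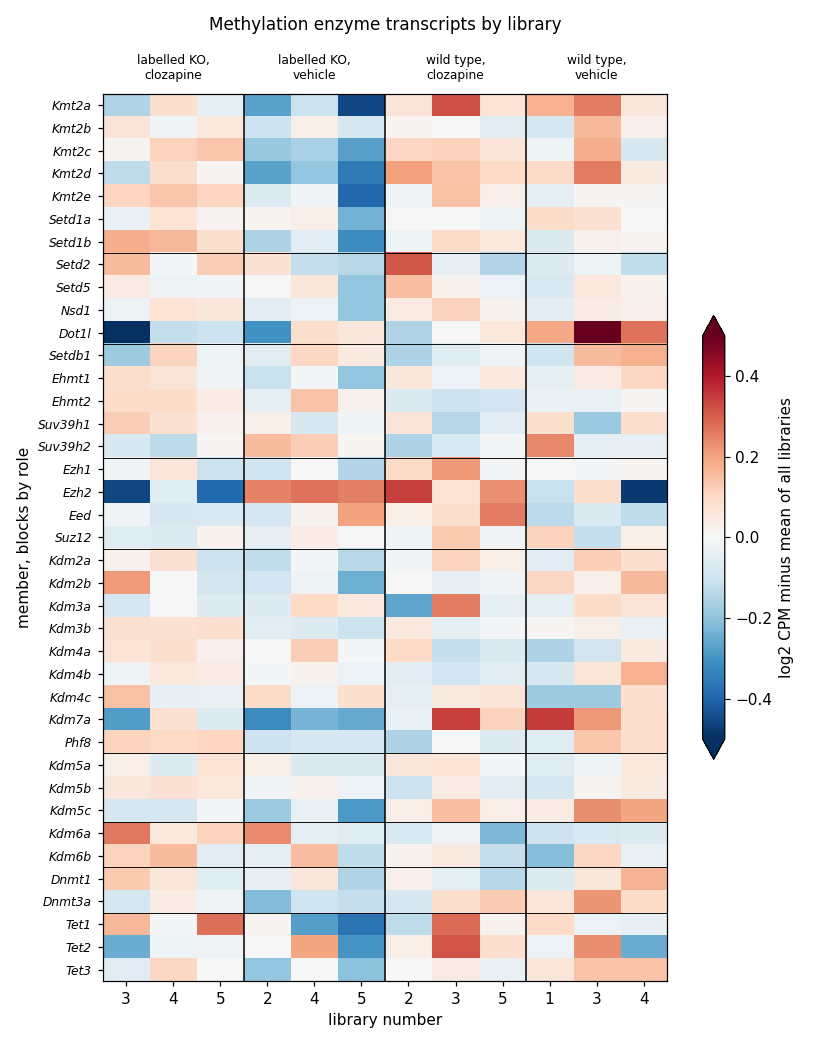
Level of each member in each library as the difference of its log2 CPM from its mean over 12 libraries; columns are libraries by group, blocks of lines are role groups, and colours beyond 0.5 in either direction are capped. Kmt2d, Kmt2a, Kdm7a and Kdm5c are low in the 3 knockout vehicle libraries.

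The first comparison set the labelled knockout against wild type under vehicle, the genotype difference without drug. Of the 39 members 7 were lower and 0 were higher: the H3K4 methyltransferases Kmt2d, Kmt2a and Kmt2c, the demethylases Kdm5c and Kdm7a, the DNA methyltransferase Dnmt3a and the dioxygenase Tet3. The falls ranged from 15.2% for Kmt2c to 28.7% for Kdm7a. They were called with edgeR's quasi-likelihood test, with Benjamini-Hochberg adjustment over the 17286 genes and a threshold of 0.05. The 7 are 17.9% of the list. In the same comparison 9.16% of all tested genes were called, 5.15% as lower and 4.01% as higher. DESeq2 called 8 members, adding Dot1l, and 9.89% of all tested genes, and limma-voom called 7 members and 9.07% of all. The median log2 change was -0.08 over the members and 0.00 over all tested genes, and 29 of 39 members had a negative change. Knockout and wild-type libraries did not overlap, in either direction, for 13 of 39 members and for 27.3% of all tested genes. In bulk tissue, fewer cells of a type and less RNA per cell cannot be told apart.

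The KMT2 and SETD1 families held 3 of the 7 falls. All 7 of their listed genes, Kmt2e included, had a negative log2 change, with a median of -0.16. Kmt2d (ENSMUSG00000048154.17, chromosome 15, 98831669 to 98871204) and Kmt2c (ENSMUSG00000038056.15, chromosome 5, 25271798 to 25498783) encode the enzymes that place H3K4 monomethylation at enhancers. Kmt2d was at 60.7, 63.9 and 57.2 CPM in knockout vehicle, against 78.1, 87.4 and 75.4 CPM in wild-type vehicle. All 3 knockout libraries lay below all 3 wild-type libraries. Kmt2d averaged 60.6 ± 3.37 CPM in knockout vehicle and 80.3 ± 6.29 CPM in wild-type vehicle (SD, n = 3 each). It fell by 24.6% (95% interval of the change -31.7% to -16.8%, log2 change -0.41 with SE 0.07, edgeR adjusted p = 0.00173). Kmt2c was at 54.7, 55.8 and 51.7 CPM in knockout vehicle, against 61.5, 70.7 and 59.0 CPM in wild-type vehicle, without overlap. Its log2 change was -0.24 (SE 0.06, edgeR adjusted p = 0.0294). Kmt2a (ENSMUSG00000002028.13, chromosome 9, 44803355 to 44881296), the MLL1 enzyme known for its role at Hox and neuronal genes, was at 87.9, 98.3 and 77.6 CPM in knockout vehicle, against 120, 127 and 110 CPM in wild-type vehicle. Here too the libraries did not overlap, and the log2 change was -0.43 (SE 0.09, edgeR adjusted p = 0.0120). Kmt2b, Kmt2e, Setd1a and Setd1b did not pass, with log2 changes of -0.09 to -0.16.

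Writers and an eraser of H3K4 methylation were lower in the same libraries: Kdm5c, which removes H3K4 methyl groups and lies on the X chromosome (ENSMUSG00000025332.14, 152233020 to 152274535), also fell. Kdm5c had 48.1, 53.1 and 44.6 CPM in knockout vehicle, against 56.0, 64.0 and 62.5 CPM in wild-type vehicle, without overlap (log2 change -0.33, SE 0.07, edgeR adjusted p = 0.00775). Its relatives did not pass: Kdm5a changed by -0.03 on the log2 scale, with a 95% interval of -0.15 to 0.09, and Kdm5b by 0.00, with an interval of -0.11 to 0.11. Kdm7a (ENSMUSG00000042599.8, chromosome 6, 39136623 to 39206789), an eraser of H3K9 and H3K27 dimethylation, had the largest fall of the list. Kdm7a had 44.1, 46.7 and 46.1 CPM in knockout vehicle, against 69.9, 63.8 and 58.3 CPM in wild-type vehicle, without overlap (log2 change -0.49, SE 0.10, edgeR adjusted p = 0.00988). Its close relative Phf8 did not pass (log2 change -0.15, edgeR adjusted p = 0.182).

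Of the DNA enzymes, Dnmt3a (ENSMUSG00000020661.15, chromosome 12, 3806007 to 3914443) writes new CpG methylation and most non-CpG methylation in neurons. Dnmt3a had 58.8, 63.8 and 63.0 CPM in knockout vehicle, against 71.2, 79.5 and 72.8 CPM in wild-type vehicle, without overlap (log2 change -0.27, SE 0.06, edgeR adjusted p = 0.0155). Tet3 (ENSMUSG00000034832.15, chromosome 6, 83362373 to 83459084), the TET enzyme with the highest level per length here, was at 48.0, 54.7 and 47.5 CPM in knockout vehicle, against 57.1, 60.5 and 60.6 CPM in wild-type vehicle. These did not overlap either (log2 change -0.25, SE 0.06, edgeR adjusted p = 0.0209). Dnmt1, Tet1 and Tet2 did not pass, with log2 changes of -0.10, -0.21 and -0.02.

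None of the 5 H3K9 methyltransferases, the 4 PRC2 subunits or the 2 KDM6 demethylases passed with edgeR's test. Ehmt1, which forms a heterodimer with G9a, had a log2 change of -0.14, and Ezh2 one of 0.40 (95% interval 0.06 to 0.74, edgeR adjusted p = 0.133). Dot1l had a larger change than several called members, at -0.39, but its libraries varied more: 60.1, 78.8 and 77.1 CPM in knockout vehicle against 84.8, 109 and 89.5 CPM in wild-type vehicle. Those libraries did not overlap, and its edgeR adjusted p was 0.122.

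**Figure D3:**
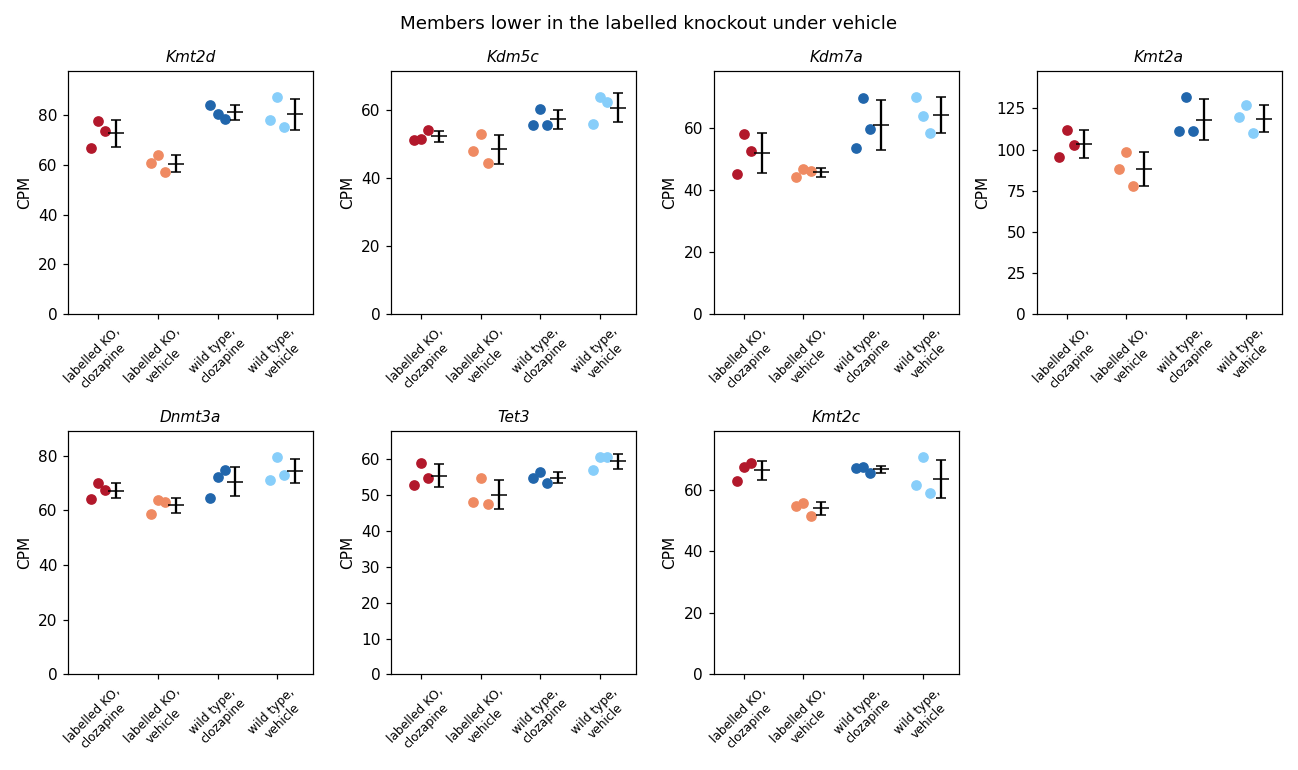
CPM of the 7 members lower in the labelled knockout under vehicle, in each of 12 libraries by group; points are libraries, and the horizontal tick with bars is the mean ± SD of 3. The knockout vehicle libraries lie below the wild-type vehicle libraries for each of the 7. Libraries of these groups did not overlap, in either direction, for 27.3% of all tested genes.

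Across the 39 members, the log2 change was lower for longer transcripts, though among the 7 called the longest, Kmt2c, had the smallest fall. The 7 called members had a median exonic length of 16670 bases (7110 to 20291), and the 32 others one of 8304 (3828 to 18347). Spearman's rho between log2 change and exonic length was -0.56 over the 39 members and -0.21 over all tested genes, a description across genes, which share the same libraries. When each library was corrected for exonic length and GC content with a smooth curve, 4 of 39 members (10.3%) stayed lower, against 5.29% of all tested genes called lower by that fit. These were Kdm7a (log2 change -0.47, edgeR adjusted p = 0.00188), Kdm5c (-0.29, 0.00467), Kmt2d (-0.28, 0.00593) and Kmt2a (-0.33, 0.0137). Dnmt3a, Tet3 and Kmt2c were at -0.15, -0.14 and -0.11 after the correction and did not pass (edgeR adjusted p = 0.184, 0.113 and 0.222). The median of the members was then -0.04.

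**Figure D4:**
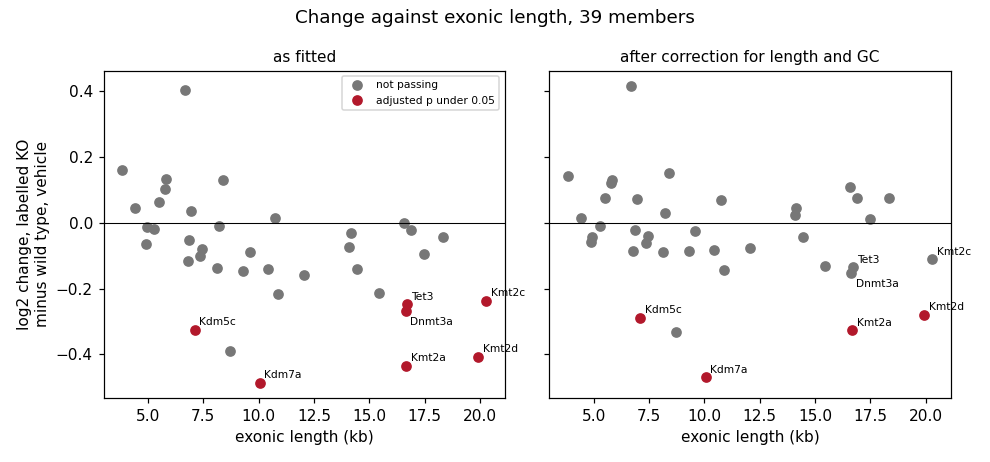
Log2 change of each member, labelled knockout minus wild type under vehicle, against its exonic length in kb, as fitted on the left and after correction of each library for length and GC content on the right; each point is 1 member and red marks an edgeR adjusted p under 0.05. Of 7 members below the threshold on the left, 4 remain on the right.

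Kmt2d, Kdm5c and Kdm7a passed whichever of the 12 libraries was left out. Without wild-type vehicle 3, the library with raised choroid plexus markers, those 3 were the only members called (edgeR adjusted p = 0.0619 for Kmt2a, 0.0887 for Dnmt3a, 0.0838 for Tet3 and 0.161 for Kmt2c). Without knockout vehicle 2, 4 were called, the same 3 and Kmt2a. The knockout vehicle 5 library had the highest total count and the lowest members: the median deviation of the 39 from their own means was -0.13 on the log2 scale, and 8 of 39 stood above their mean. Without it 5 members were called (edgeR adjusted p = 0.0833 for Tet3 and 0.108 for Kmt2c), and without wild-type vehicle 4 there were 6 (0.0579 for Tet3). In this comparison some cell type markers also passed the threshold, where 9.16% of all tested genes were called. Of the markers listed for deep-layer neurons (Fezf2, Bcl11b, Foxp2, Tle4, Rprm, Crym, Ntsr1 and Rorb) 2 of 8 were higher. Of these 8 changes 7 were positive, with a median log2 change of 0.31. The 8 markers summed to 249.7 to 292.4 CPM in knockout vehicle against 190.1 to 258.1 CPM in wild-type vehicle. Of the microglial markers 2 of 9 were higher (400.2 to 420 CPM against 350.6 to 392 CPM). In that list 7 of 9 changes were positive, with a median log2 change of 0.17. Of the upper-layer markers 2 of 6 were lower, but 3 of the 6 had a positive change. The upper-layer sums overlapped (1614 to 1749 CPM against 1570 to 1741 CPM). Of the endothelial markers 1 of 7 was higher and 1 lower (200.7 to 210.8 CPM against 193.7 to 240.6 CPM). Only 1 of these 7 had a positive change, and their median log2 change was -0.18. Among 6 oligodendrocyte precursor markers 1 was higher and 1 lower (235.6 to 250 CPM against 219.4 to 238.8 CPM), and 3 had a positive change. Of 6 tested striatal neuron markers 1 was lower (193.7 to 212 CPM against 190 to 238.9 CPM). None of the 6 excitatory neuron markers passed (8160 to 8923 CPM against 8683 to 9627 CPM). No tested marker of interneurons, astrocytes, oligodendrocytes, mural cells, meningeal fibroblasts, choroid plexus or red blood cells passed either. The part of length, depth and cell makeup in the members' falls was not tested beyond these values.

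Under clozapine, the same genotype comparison called 0 of 39 members with edgeR, against 2% of all tested genes. At an unadjusted p under 0.05 there were 6 members, against 15.9% of all tested genes, and DESeq2 and limma-voom each called 0 members. The median log2 change was 0.01, with 22 positive and 17 negative values. Knockout and wild-type libraries did not overlap for 11 of 39 members and for 22.5% of all tested genes. Kmt2d was at 67.0, 77.6 and 73.7 CPM in knockout clozapine, against 84.3, 80.7 and 78.4 CPM in wild-type clozapine, and the libraries did not overlap. Its log2 change was -0.16 (95% interval -0.30 to -0.02, edgeR adjusted p = 0.260). Kmt2a was at 95.5, 112 and 103 CPM in knockout clozapine, against 111, 132 and 111 CPM in wild-type clozapine, with overlap (log2 change -0.19, edgeR adjusted p = 0.338). Kdm7a and Kdm5c had log2 changes of -0.23 and -0.13, and Dnmt3a, Tet3 and Kmt2c of -0.07, 0.01 and -0.01. The smallest p-values belonged to Ehmt2 and Ezh2. Ehmt2 was at 250, 250 and 240 CPM in knockout clozapine, against 223, 218 and 220 CPM in wild-type clozapine, without overlap (log2 change 0.16, SE 0.05, edgeR adjusted p = 0.111). Ezh2 was at 2.06, 2.71 and 2.15 CPM in knockout clozapine, against 3.57, 2.95 and 3.30 CPM in wild-type clozapine, also without overlap (log2 change -0.51, SE 0.17, edgeR adjusted p = 0.129).

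**Figure D5:**
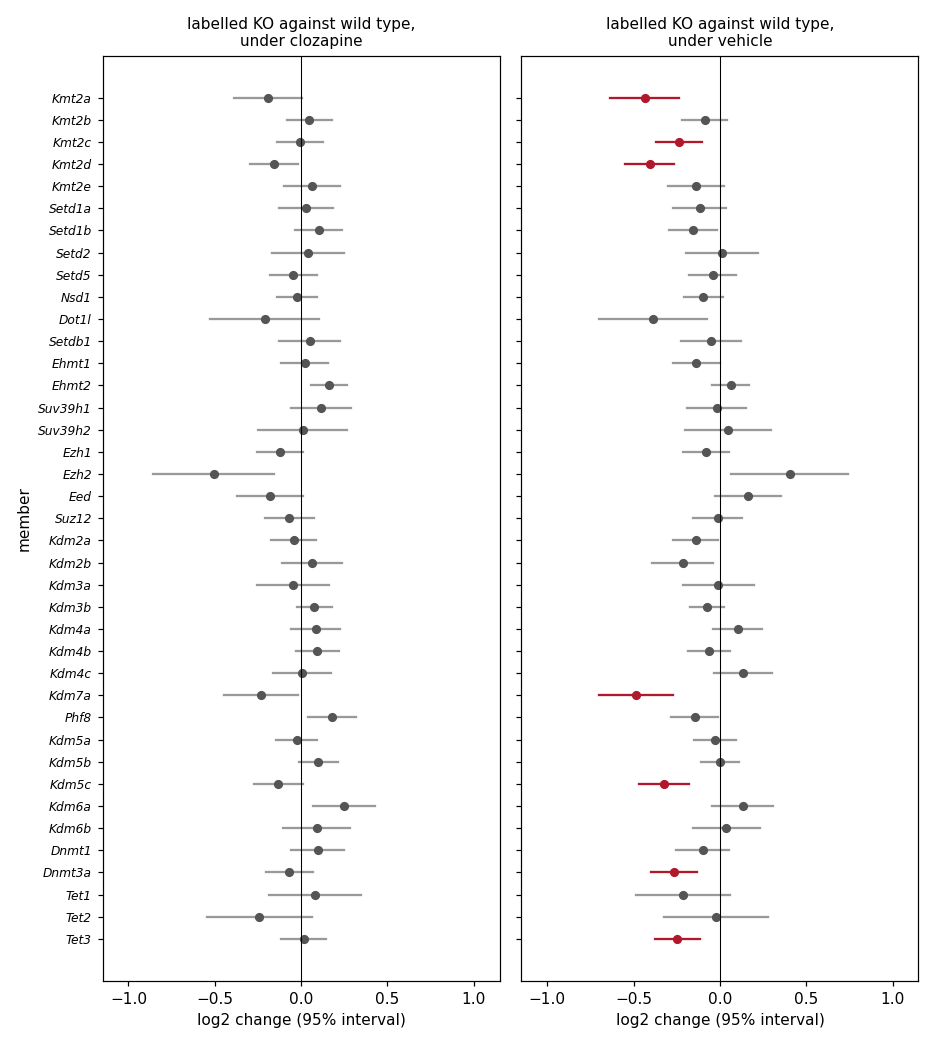
Log2 change with 95% interval for each member, labelled knockout minus wild type, under clozapine on the left and under vehicle on the right, with 3 libraries in each group; red marks an edgeR adjusted p under 0.05. The 7 red members are all on the right and lie below 0.

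Whether the genotype difference depended on the drug was tested by the interaction, the difference between the effect of clozapine in the labelled knockout and its effect in wild type. No member passed with edgeR, against 0.654% of all tested genes, so the 7 falls under vehicle are not shown to differ from the values under clozapine. At an unadjusted p under 0.05 there were 10 members, against 13.6% of all tested genes, and DESeq2 and limma-voom called 0 members. For the 7 the interaction was 0.19 to 0.26 on the log2 scale, with edgeR adjusted p-values of 0.197 to 0.470. After the length and GC correction it was 0.05 to 0.13 for 6 of them, with Kmt2d at 0.06, and 0.31 for Kdm7a. The largest interaction was that of Ezh2, at -0.91 (SE 0.23, edgeR adjusted p = 0.0862). Ezh2 was at 2.06, 2.71 and 2.15 CPM in knockout clozapine, 3.35, 3.40 and 3.36 in knockout vehicle, 3.57, 2.95 and 3.30 in wild-type clozapine, and 2.61, 3.00 and 2.02 in wild-type vehicle. In the labelled knockout all clozapine libraries lay below all vehicle libraries, and in wild type the groups overlapped. Clozapine and vehicle libraries of the labelled knockout did not overlap for 18.7% of all tested genes. Phf8 had the next smallest p, with an interaction of 0.32 (SE 0.09, edgeR adjusted p = 0.129), with 26.1, 25.9 and 26.0 CPM in knockout clozapine against 22.5, 22.9 and 22.8 CPM in knockout vehicle, and with 21.7, 24.1 and 23.1 CPM in wild-type clozapine against 23.2, 26.6 and 25.7 CPM in wild-type vehicle.

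Averaged over both treatments, 6 knockout libraries were set against 6 wild-type libraries, which include the vehicle libraries above and are no separate evidence. Of the 39 members 5 were lower and 0 higher (12.8% of the list), against 10.5% of all tested genes called, 5.01% as lower and 5.52% as higher. They were Kmt2d (log2 change -0.28, SE 0.05, edgeR adjusted p = 0.00136), Kdm7a (-0.36, SE 0.07, 0.00621), Kdm5c (-0.23, SE 0.05, 0.00660), Kmt2a (-0.31, SE 0.07, 0.00855) and Dnmt3a (-0.17, SE 0.04, 0.0241). DESeq2 called 7 members and 10.7% of all tested genes, and limma-voom called 6 members and 10.3% of all. For Kdm5c all 6 knockout libraries lay below all 6 wild-type libraries. It was the only member without overlap, 1 of 39, against 4.04% of all tested genes. The first 4 passed in all 12 fits that left out a library, and Dnmt3a in 6 of 12. After correction for length and GC content Dnmt3a had an edgeR adjusted p of 0.104, and the H3K27 demethylase Kdm6a passed as higher (log2 change 0.23, edgeR adjusted p = 0.0207, against 0.19 and 0.0531 without the correction).

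Clozapine was compared with vehicle within each genotype. In the labelled knockout 0 of 39 members passed with edgeR, against 0.0231% of all tested genes. Yet 12 members had an unadjusted p under 0.05 (12.2% of all genes did), and 30 of 39 changes were positive, with a median of 0.09 against 0.00 over all genes. DESeq2 called 3 members as higher, Kmt2c, Kmt2d and Setd1b, and 1.59% of all tested genes, and limma-voom called 0 members. Clozapine and vehicle libraries did not overlap for 11 of 39 members and for 18.7% of all tested genes. Setd1b, an H3K4 methyltransferase, was at 49.8, 49.4 and 46.5 CPM in knockout clozapine, against 39.6, 42.4 and 35.5 CPM in knockout vehicle, without overlap (log2 change 0.31, SE 0.06, edgeR adjusted p = 0.0800). Kmt2c was at 63.0, 67.5 and 68.8 CPM in knockout clozapine, against 54.7, 55.8 and 51.7 CPM in knockout vehicle, also without overlap (log2 change 0.30, edgeR adjusted p = 0.0800). Without knockout vehicle 4 edgeR called 1 member, Setd1b. The vehicle libraries here are those of the genotype comparison above, so their low values enter both. Spearman's rho between log2 change and exonic length was 0.57 over the members and 0.18 over all tested genes. After the length and GC correction the members' median was 0.02, Kmt2c was at 0.15 and Setd1b at 0.21, neither passing (edgeR adjusted p = 0.264 and 0.142).

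In wild-type mice clozapine changed 0 of 39 members with edgeR, against 0.816% of all tested genes. DESeq2 and limma-voom called 0 members, and 4 members had an unadjusted p under 0.05, against 11.6% of all tested genes. The median log2 change was -0.01, with 17 positive and 22 negative values. Clozapine and vehicle libraries did not overlap for 6 of 39 members and for 15.6% of all tested genes. The PRC2 subunit Eed was at 12, 12.4 and 14.0 CPM in wild-type clozapine, against 10.7, 11.1 and 10.7 CPM in wild-type vehicle, without overlap (log2 change 0.24, SE 0.09, edgeR adjusted p = 0.284). Dot1l was at 66.8, 74.0 and 76.9 CPM in wild-type clozapine, against 84.8, 109 and 89.5 CPM in wild-type vehicle, likewise without overlap (log2 change -0.38, SE 0.14, edgeR adjusted p = 0.307). Averaged over the genotypes, clozapine called 0 of 39 members with edgeR, against 0.15% of all tested genes, with 8 members at an unadjusted p under 0.05, as had 11.2% of all tested genes. DESeq2 called 2, Kmt2c and Setd1b, and 0.96% of all tested genes, and limma-voom called 0 members. Both had a log2 change of 0.18 (edgeR adjusted p = 0.143).

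Partners of these enzymes were read from 7 further lists, of which 86 of 89 genes were tested. Dnmt3l and Pagr1a had too few counts, and Prmt1 was not found by its symbol, so its level is not known here. Under vehicle 10 of the 86 (11.6%) passed in the labelled knockout against wild type, 2 higher and 8 lower, near the 9.16% of all tested genes (4.01% higher, 5.15% lower). Of 20 other lysine methyltransferases 4 were lower, among them Prdm2 (log2 change -0.31, edgeR adjusted p = 0.00353), the H3K36 methyltransferase Ash1l (-0.24, 0.0214) and Setd7 (-0.28, 0.0216), and Smyd5 was higher (0.26, 0.0164). Of 12 subunits and partners of the H3K4 complexes 2 were lower, Hcfc1 (-0.31, 0.0203) and Bod1l (-0.22, 0.0467). Among DNA methylation partners, Mbd5 was lower (-0.26, 0.0446) and Idh1 was higher (0.27, 0.0300). The lists of other demethylases, arginine methyltransferases, PRC2 partners and H3K9 readers had no gene past the edgeR threshold in that comparison. Kdm5d, the Y-linked homologue of Kdm5c, was at 20.3, 19.0 and 18.1 CPM in knockout vehicle, against 18.1, 19.4 and 19.5 CPM in wild-type vehicle, with overlap (log2 change 0.01, edgeR adjusted p = 0.964). The difference between Kdm5c and Kdm5d was not tested, and how reads shared by such similar genes were counted is not given in the sources used here. In the clozapine comparisons within each genotype, 0 of the 86 passed with edgeR, and 19 in the labelled knockout and 11 in wild type had an unadjusted p under 0.05.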

How the data were processed

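Frontal cortex RNA of 12 libraries was sequenced, and the tools are STAR 2.5.1b and featureCounts on GRCm38, per the submitters' processing notes. The authors deposited what are treated here as estimated counts, since 7.39% of the values are not whole. How reads were shared between genes and whether strand was used are not given in the sources used here. Whole counts had been assumed in the plan, so the values were rounded to whole numbers.

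Identifiers were matched to GENCODE M21 (GRCm38), which named 46488 of 47069 genes. The identifier versions, gene positions and exonic lengths given here are those of M21. Some versions in the count table are earlier, as ENSMUSG00000048154.16 for Kmt2d and ENSMUSG00000002028.12 for Kmt2a. Low genes were removed with filterByExpr, which left 17286 genes and 99.9% of counts. Totals were 23408372 to 28069638, and replicates varied beyond counting error. One edgeR 4.0.16 fit (R 4.3.3; TMM scaling, robust quasi-likelihood, Benjamini-Hochberg adjustment over all tested genes, threshold 0.05) of all 12 libraries gave 7 contrasts. CPM uses TMM-scaled totals. The 95% intervals come from the same fit.

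The members and all lists were chosen with earlier results of these data known. In each comparison the members named are those past the threshold, up to 8 in each direction, or where fewer than 2 pass the 2 of smallest p, and members of the highest and lowest level per role group. Other members were named after their values were seen. Partner genes are those past the threshold, up to 3 a list, and Kdm5d, chosen after its values were seen. Not every result under this rule is reported here. Upstream windows come from RefSeq (GRCm38.p6). Alternatives were DESeq2 1.42.0, limma-voom (limma 3.58.1), other scaling and filters, unrounded counts, length and GC correction, a replicate block, fits of only the groups compared, and leaving out each library. The scripts were tested on simulated data.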

Additional observations from a re-analysis of the deposited data

How the results depend on the processing

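The 22 member values named by rule kept their direction in every alternative run. They were picked in these data by threshold or smallest p, and every run reused these libraries, so this is a weak check. Over all 273 member values, 45 changed sign under the length and GC correction, none of them called before it, among them Kdm5a and Tet2 under vehicle (log2 change 0.04 and 0.08 after it). Under vehicle, where 7 of 39 members were lower in the labelled knockout, the length and GC correction left 4, and leaving out 1 library gave 3 to 7. For clozapine in the labelled knockout the count of 0 became 3 with DESeq2 and 4 without the low-count filter, and 0 to 1 when a library was left out. The clozapine average gave 2 with DESeq2 and 2 without the filter, and the interaction gave 1, Ezh2, without the filter (edgeR adjusted p = 0.0444). The genotype average, with 5 members called, gave 4 to 7 when a library was left out, some lost and some gained. Over all genes, the vehicle comparison called 1584 genes, 617 without wild-type vehicle 3 and 1095 when only the groups compared were fitted. With the replicate block, the vehicle comparison called 2 members, Kdm5c and Kmt2d, and 385 genes, and with the replicate block and the length and GC correction 0 members, while 1, Kdm6a, was called as higher under clozapine. The labels do not say that numbers pair libraries. Correlations of same-numbered libraries ranged from -0.08 to 0.18, with 3 of 10 over 0.1. Those of other pairs ranged from -0.26 to 0.20, with 7 of 44 over 0.1. Of the 11 libraries that share a number, 4 correlated best with a library of their own number. These values do not settle whether numbers pair libraries. With 3 libraries a group, small changes and low genes such as Ezh2 are measured with little precision, and cell makeup cannot be separated from expression. The cause of these differences was not tested.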

Other observations

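Some partner genes differed by genotype outside the vehicle comparison. Under clozapine, the arginine methyltransferase Prmt8, known from brain, was higher in the labelled knockout (log2 change 0.36, edgeR adjusted p = 0.00473) and Setd4 was lower (-0.57, 0.0280), 2 of 86 genes against 2% of all tested genes. Averaged over treatments 10 of 86 (11.6%) passed, 5 higher and 5 lower, near the 10.5% of all tested genes. The H3K4 demethylase Kdm1a was higher (0.15, edgeR adjusted p = 0.0129), and the PRC2 partner Aebp2 was lower (-0.12, 0.0352). The interaction called 1 of 86, the PRC2 partner Epop (0.45, edgeR adjusted p = 0.0424), against 0.654% of all tested genes.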
